A study of Mus musculus with 8 samples.

Results

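The S100 genes encode small calcium-binding proteins, and 7 of them, S100a4, S100a6, S100a8, S100a9, S100a10, S100a11 and S100a13, were followed by gene symbol through RNA sequencing of regulatory T (Treg) cells, suppressive T cells that depend on the transcription factor Foxp3. Rows were found for 6 of these 7 genes among 19191 genes, and S100a8 was not analysed here. The genes were picked with the difference between genotypes already in view, so the values of that difference are a description and carry no test. Treg cells were sorted from the large-intestinal lamina propria of C57BL/6 mice that made Cre recombinase with a yellow fluorescent protein from the Foxp3 locus. The group called WT had the genotype Ahrf/+ Foxp3Yfp-Cre, with 1 floxed and 1 intact allele of Ahr, the aryl hydrocarbon receptor. The group called KO had the genotype Ahrf/- Foxp3Yfp-Cre, with 1 floxed and 1 null allele. Each group had 2 libraries, all 4 carried the Cre, and the other 4 of the 8 samples of the series (ATAC-seq) were not analysed here. WT Treg cells therefore kept a working Ahr copy, and tissue around the Treg cells had 1 null allele in KO mice, so effects of the surrounding tissue cannot be told apart from effects within Treg cells. Ages were not given in the sources used here, and the labels do not say that replicates came from separate animals, so the spread between them may be technical.

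S100 proteins carry a pair of EF-hand loops, mostly work as dimers, and on binding calcium expose a surface that grips target proteins. S100a4 binds the heavy chain of non-muscle myosin IIA and is known for a role in cell motility, and S100a6 binds the calcyclin-binding protein Cacybp. S100a10 is the exception that no longer needs calcium and pairs with annexin A2, S100a11 binds annexin A1, and S100a13 takes part in the release of Fgf1 and interleukin 1 alpha. S100a9, with its partner S100a8, forms calprotectin, an abundant protein of neutrophils and monocytes. In T cells, messages for several S100 proteins are typical of antigen-experienced, migratory cells.

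The counted S100 genes lie in 2 blocks on chromosome 3 (coordinates of the deposited table, build mm9). The first block holds S100a13 (90318357 to 90328503, plus strand), S100a4 (90407692 to 90409967, plus strand), S100a6 (90416816 to 90418336, plus strand) and S100a9 (90496554 to 90499643, minus strand). After a gap of 2.82 Mb between S100a9 and S100a11, the second block holds S100a11 (93324410 to 93330209, plus strand) and S100a10 (93359002 to 93368565, plus strand), 28.8 kb apart. S100a4 lies 1.07 kb downstream of S100a3 and 2.48 kb upstream of S100a5, and S100a6 follows S100a5 after 1.11 kb. S100a13 and S100a1 start head to head with 42 bases between them, and since the use of strand in counting is not given in the sources used here, reads at such a border cannot be assigned with certainty.

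RefSeq gave start-site windows for 6 of the 7 genes, all but S100a10 (build GRCm38.p6, a later build than that of the counts). The 250 bases before the annotated start are shown for S100a4 and S100a6, the members with the highest log2 fold changes in the fit to all libraries. They are also shown for S100a11, whose levels went with the replicate number. Capitals mark matches on either strand to GCGTG (the core of the Ahr response element), TGANTCA (bound by AP-1 factors) or TGTGGT (bound by Runx factors), and no match overlaps another.
S100a4 (chr3:90603520-90603769, plus strand): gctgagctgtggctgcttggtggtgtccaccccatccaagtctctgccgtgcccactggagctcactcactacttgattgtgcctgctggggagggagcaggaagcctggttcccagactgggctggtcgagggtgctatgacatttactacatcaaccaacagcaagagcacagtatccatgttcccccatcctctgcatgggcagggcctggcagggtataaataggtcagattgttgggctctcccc
S100a6 (chr3:90612644-90612893, plus strand): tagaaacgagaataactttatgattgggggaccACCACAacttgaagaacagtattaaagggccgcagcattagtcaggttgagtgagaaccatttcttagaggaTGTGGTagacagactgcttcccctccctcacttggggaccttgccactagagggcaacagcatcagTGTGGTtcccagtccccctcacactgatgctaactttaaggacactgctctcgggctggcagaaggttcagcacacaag
S100a11 (chr3:93520246-93520495, plus strand): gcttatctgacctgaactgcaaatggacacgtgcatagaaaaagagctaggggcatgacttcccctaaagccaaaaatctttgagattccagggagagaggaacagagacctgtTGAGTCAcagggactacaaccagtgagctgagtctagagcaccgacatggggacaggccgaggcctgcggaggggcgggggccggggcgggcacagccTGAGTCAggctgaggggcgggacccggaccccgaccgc
The S100a4 stretch held none of these letters. The S100a6 stretch held TGTGGT at 3 places, and the window of S100a9 held it at 1. At least 1 TGTGGT was in 14% of all 32851 windows. The S100a11 stretch held TGANTCA at 2 places, and at least 1 was in 6.75% of windows. Shares of windows with more than 1 match were not counted. GCGTG was in 28.2% of windows. Among the 6 genes with a window, S100a8 included, it was in that of S100a13 alone, 190 to 186 bases before the start. S100a10 had no window and was not scanned. These are matches of letters and show no binding, and a missing match says nothing about a factor.

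The libraries held 26862922 to 62402450 gene counts, and replicate 2 was the deeper library in both genotypes. Levels are CPM, counts relative to a library size of 1000000, where library sizes were summed over tested genes and corrected by TMM (a scaling for composition differences between libraries). Log2 fold changes of KO over WT come from 1 edgeR fit over all 14274 genes that passed a filter on low counts, with standard errors (SE), and a positive value is higher in KO. All 12 T cell and Treg markers were counted in every library, and their summed level was 8788 and 8571 CPM in the WT libraries, against 9829 and 9241 CPM in the KO libraries. Of the 12 genes 8 were higher and 4 lower in KO (median log2 fold change 0.08), and for 5 both KO libraries were above both WT libraries, against 0 for which both were below (13.5% and 13.4% of all tested genes). Ctla4, an inhibitory receptor and the most abundant of them, had 0.24 ± 0.10 (SE), and Foxp3 had -0.06 ± 0.09, with 280 and 252 CPM in the WT libraries, against 250 and 259 CPM in the KO libraries. edgeR and DESeq2 called 0 of the 12 (0 at an unadjusted p under 0.05 in edgeR). Counts over the whole Ahr gene do not check the deletion, while Ahrr, the repressor that Ahr induces, stood at 7.30 and 6.55 CPM in the WT libraries, against 0.391 and 0.265 CPM in the KO libraries.

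S100a4 had the largest fold change of the 5 tested members in the fit to all 4 libraries (without WT replicate 1 that of S100a11 was larger, with log2 values of 0.60 against 0.43). WT replicates 1 and 2 had levels of 223 and 299 CPM, and KO replicates 1 and 2 had 392 and 417 CPM. Both KO libraries were above both WT libraries, and the WT libraries differed more from each other than the KO libraries did. The WT mean of 261 ± 53.5 CPM and the KO mean of 405 ± 17.6 CPM (SD, n = 2) gave a 1.55-fold difference and a log2 fold change of 0.63 ± 0.15 (SE). Within the shallower libraries (replicate 1) KO was 1.76-fold above WT, and within the deeper ones (replicate 2) 1.39-fold. Of the 2102 tested genes with at least 100 CPM in every library, 3 had a log2 fold change at least as high as that of S100a4, itself included, and over all 14274 tested genes 428 did. Since S100a4 was picked with this difference in view, its rank is a description only. In bulk samples a change in how many cells carry a message cannot be told apart from a change in its amount per cell, so fewer cells of a type and less RNA per cell give the same value.

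S100a6, whose start lies nearest to S100a4 among the members, followed the same order of libraries. It stood at 101 and 124 CPM in WT replicates 1 and 2 and at 137 and 149 CPM in KO replicates 1 and 2. The groups did not overlap, and as for S100a4 the lowest library was WT replicate 1 and the highest KO replicate 2. The WT mean of 113 ± 16.5 CPM and the KO mean of 143 ± 8.18 CPM (SD, n = 2) gave a log2 fold change of 0.35 ± 0.13 (SE). KO was 1.36-fold above WT in the shallower libraries and 1.20-fold above it in the deeper ones.

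S100a10, the annexin A2 partner in the other block, stood at 345 and 373 CPM in the WT libraries, against 393 and 391 CPM in the KO libraries. Both KO libraries were again above both WT libraries, by a small margin. The WT mean of 359 ± 20.0 CPM and the KO mean of 392 ± 1.46 CPM (SD, n = 2) gave a log2 fold change of 0.13 ± 0.09 (SE).

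**Figure D1:**
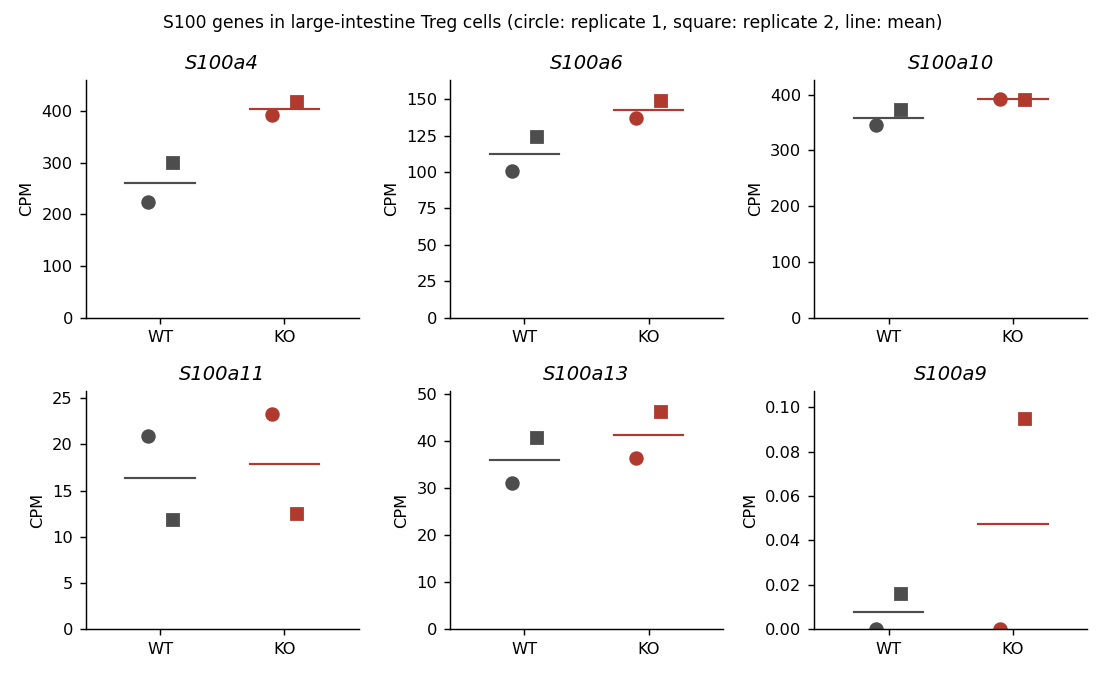
Level of each counted S100 member in each library (vertical axes: CPM, each starting at 0; circles, replicate 1; squares, replicate 2; lines, means of 2 libraries; grey, WT; red, KO). For S100a4, S100a6 and S100a10 both KO points lie above both WT points, for S100a11 and S100a13 the circles and squares separate instead, and S100a9 stays under 0.1 CPM.

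Both KO libraries were above both WT libraries for 3 of the 6 counted members (S100a4, S100a6 and S100a10), where 13.5% of all tested genes showed that order and 13.4% the opposite one. edgeR called 0 of the 5 tested members at a Benjamini-Hochberg adjusted p under 0.05, and 0.00% of all tested genes (407 genes, 2.85%, had an unadjusted p under 0.05). Even Ahrr, with a log2 fold change of -4.42 ± 0.31 (SE), had an adjusted p of 0.218 in edgeR, against 3.11e-18 in DESeq2. A count of 0 edgeR calls, here or in any list, therefore does not show that levels were equal. limma-voom also called 0 genes, and DESeq2 called 1 of the 5, S100a4, where it called 0.267% of the 17996 genes to which it gave an adjusted p. The DESeq2 call of S100a4 was kept without WT replicate 2 and lost without WT replicate 1, without KO replicate 1 or without KO replicate 2. Since the members were picked on the same difference, nothing is read from these counts.

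Ratios of counts within a library do not depend on how libraries are scaled, and gene length cancels when the same ratio is compared between libraries. The count of S100a4 per count of S100a10 was 0.648 and 0.801 in WT and 0.997 and 1.07 in KO. The ratio of S100a4 to S100a6 was 2.21 and 2.41 in WT and 2.85 and 2.80 in KO. In both ratios the KO libraries were above the WT libraries, so the S100a4 difference was larger than those of S100a6 and S100a10 in these libraries. The ratio of S100a6 to S100a10 was 0.292 and 0.333 in WT and 0.349 and 0.381 in KO. S100a4 made up 31.0% and 35.2% of the counts of the 6 genes in WT and 39.9% and 41.0% in KO, while S100a10 made up 47.8% and 44.0% in WT and 40.0% and 38.5% in KO. The share of S100a6 was 14% and 14.6% in WT and 14% and 14.7% in KO, so its part of the total was near the same in all 4 libraries.

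S100a11 and S100a13 differed more by replicate than by genotype. S100a11 stood at 20.9 and 11.8 CPM in WT replicates 1 and 2 and at 23.3 and 12.5 CPM in KO replicates 1 and 2. The groups overlapped, and in each genotype the shallower library was the higher one, 1.78-fold in WT and 1.86-fold in KO. The log2 fold change of KO over WT was 0.14 ± 0.38 (SE), and its sign depended on the libraries used, with 0.60 without WT replicate 1, 0.53 without KO replicate 2, -0.23 without WT replicate 2 and -0.38 without KO replicate 1. Among the 11335 tested genes whose average log2 CPM reached 1, 50 genes (0.441%), S100a11 included, were lower in the deeper library by at least the S100a11 fold in both genotypes.

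S100a13 ran the other way across replicates. It stood at 31.2 and 40.7 CPM in WT replicates 1 and 2 and at 36.5 and 46.2 CPM in KO replicates 1 and 2, so the groups overlapped and the deeper library was 1.31-fold higher in WT and 1.27-fold higher in KO. KO was 1.17-fold above WT in the shallower libraries and 1.14-fold above it in the deeper ones, and the log2 fold change was 0.20 ± 0.18 (SE). It was 0.02 without WT replicate 1 and also without KO replicate 2, and 0.41 without WT replicate 2 and 0.35 without KO replicate 1. S100a1, its head-to-head neighbour, stood at 1.68 and 1.76 CPM in the WT libraries, against 1.69 and 2.36 CPM in the KO libraries, so reads of S100a1 were few beside those of S100a13 (18.6 to 23.1 S100a13 counts per S100a1 count).

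S100a9, one chain of calprotectin, was near 0. WT replicates 1 and 2 held 0 and 1 counts and KO replicates 1 and 2 held 0 and 5, 6 counts in all. A count of 0 allowed up to 0.112 CPM in WT replicate 1 and 0.0978 CPM in KO replicate 1 (a floor of 3 counts, for counting error only), so no difference between genotypes was detectable at this depth. Among the neutrophil markers, 2 genes that were high in all 4 libraries, Mmp9 (81.4 to 109 CPM) and Il1r2 (70.7 to 98.3 CPM), made up nearly all of the summed level of 162 to 207 CPM. The other 11 counted neutrophil genes summed to 1.71 and 1.33 CPM in the WT libraries, against 1.66 and 1.34 CPM in the KO libraries, with no gene above 0.931 CPM and Elane, the neutrophil elastase, at 0 in 3 of 4 libraries.

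**Figure D2:**
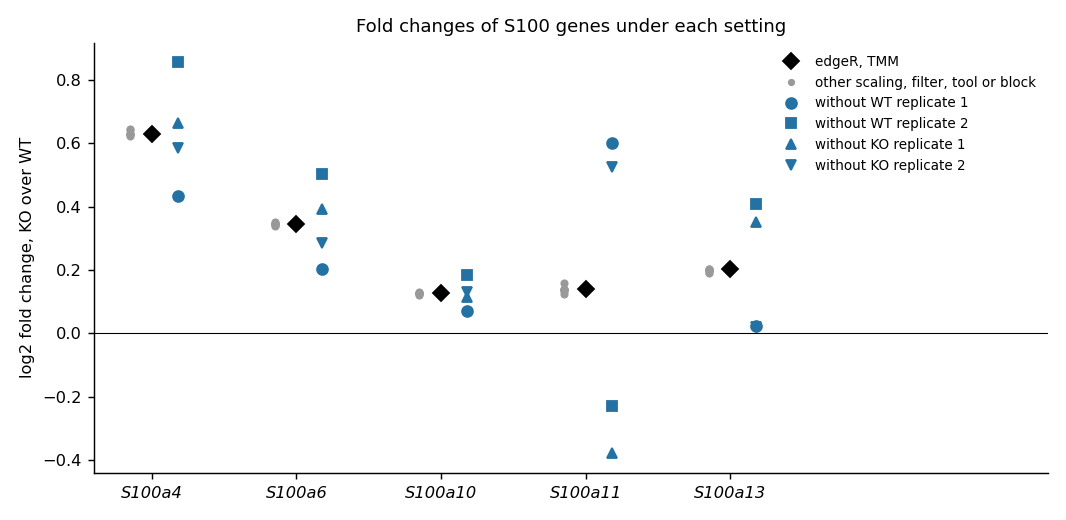
Log2 fold change of KO over WT (vertical axis) of the 5 tested S100 members in the edgeR fit (black diamonds), under other scalings, filters, tools or the replicate block (grey points) and without each library (blue symbols). S100a4 lies between 0.43 and 0.86, and S100a11 changes sign with the library left out.

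The 7 other S100 genes that were found held few counts. S100a1 held 45 to 125 counts per library, and S100a3 stood at 0.261 and 0.738 CPM in the WT libraries, against 0.391 and 0.643 CPM in the KO libraries although it lies next to S100a4. S100a5, between S100a4 and S100a6, held 8 counts over all libraries, and S100g, the intestinal calcium carrier calbindin D9k, held 17. S100a14 and S100a16, which are typical of epithelium, were highest in KO replicate 2, where S100a14 had 31 counts against 2 or 3 in each of the others and S100a16 had 0.927 CPM against 0 to 0.503. S100b, the astrocyte and glial family member, had 5 and 9 counts in WT and 8 and 17 in KO. Of the 4 tested genes of this group all had a log2 fold change above 0 (range 0.01 to 1.02, median 0.55), beside 52.0% and a median of 0.01 over all tested genes. edgeR called 0 of the 4 (0 at an unadjusted p under 0.05), likewise DESeq2, and the median was -0.41 without KO replicate 2, 0.20 without WT replicate 1 and 0.99 without WT replicate 2.

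Genes around the 2 blocks went both ways, with small differences where counts were high. Of 12 genes within 100000 bases of a member, S100a1, S100a3, S100a5, S100a14 and S100a16 given above among them, 9 were tested. In KO 5 were higher (S100a1, S100a3, S100a16, Ilf2 and Npr1) and 4 lower (Ints3, Snapin, Tchh and 2500003M10Rik). Neither edgeR nor DESeq2 called any (0 at an unadjusted p under 0.05 in edgeR). The median log2 fold change was 0.01, the value of S100a3. That median was 0.29 without KO replicate 1, -0.12 without KO replicate 2, -0.07 without WT replicate 1 and 0.14 without WT replicate 2. Ints3, a subunit of the integrator complex, had -0.09 ± 0.13 (SE), Snapin, a component of the SNARE and lysosome machinery, had -0.05 ± 0.12, and Ilf2, an RNA-binding protein, had 0.04 ± 0.10. In the gap between the blocks lie the Sprr2a genes of the cornified envelope, named here after their values were seen. Sprr2a1 had 0 and 6 counts in WT and 35 and 146 in KO, and Sprr2a2, which overlaps it and is nearly identical, had 3 and 1 counts in WT and 34 and 149 in KO, so their reads cannot be told apart.

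**Figure D3:**
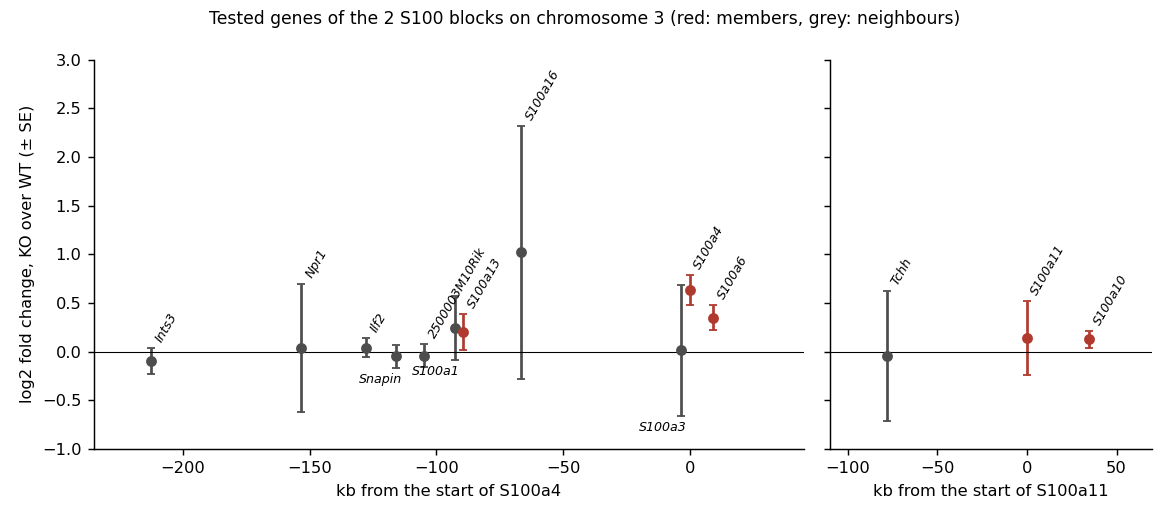
Log2 fold change of KO over WT (vertical axis, points; bars, SE) of the tested genes in both S100 blocks of chromosome 3 against the distance of the gene's start from that of S100a4 (left) or S100a11 (right) in kb. S100a4, S100a6, S100a10 and S100a13 lie above 0 by more than their SE, and S100a11, S100a1 and S100a16 by less than theirs. Ints3, Ilf2 and Snapin lie within 0.1 of 0.

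The proteins that S100 proteins bind are mixed in direction. Of 23 partner and receptor genes 19 were tested, with 11 higher and 8 lower in KO, where 52.0% of all tested genes were higher. Their median log2 fold change was 0.07 beside 0.01 over all tested genes. Without KO replicate 1 the median was 0.01. edgeR and DESeq2 called 0 of the 19, and 1 (Anxa2) had an unadjusted p under 0.05 in edgeR, where 2.85% of all tested genes had. Anxa2, the annexin that pairs with S100a10, stood at 120 and 138 CPM in the WT libraries, against 149 and 182 CPM in the KO libraries, without overlap, and its log2 fold change was 0.36 ± 0.13 (SE; adjusted p = 1.00 in edgeR). Bsg, the cell surface protein basigin that can bind S100a9, had 0.23 ± 0.10, and both KO libraries (147 CPM each) were above both WT libraries (117 and 134 CPM). Cd69, an early activation antigen, had -0.18 ± 0.10, and Cd33, a myeloid receptor, had -1.39 ± 0.96. Ahnak, a giant scaffold protein that binds the S100a10 and annexin A2 complex, had 0.13 ± 0.11 at 6786 and 6720 CPM in the WT libraries, against 7127 and 7622 CPM in the KO libraries. Myh9, the myosin heavy chain bound by S100a4, had -0.04 ± 0.11, Cacybp, the S100a6 partner, had -0.003 ± 0.10, and Anxa1, the S100a11 partner, had 0.29 ± 0.26.

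Other EF-hand calcium sensors also went both ways. Of 20 tested genes 14 were higher and 6 lower, where 52.0% of all tested genes were higher. The median log2 fold change was 0.03 (0.06 without WT replicate 2), beside 0.01 over all tested genes. edgeR and DESeq2 called 0, and 1 (Actn1) had an unadjusted p under 0.05 in edgeR, where 2.85% of all tested genes had. Capn2, a calpain, had 0.17 ± 0.14, and Rcn2, a reticulum calcium binder, had 0.15 ± 0.11. Actn1, the actin cross-linker alpha-actinin 1, stood at 58.2 and 56.2 CPM in the WT libraries, against 46.3 and 45.5 CPM in the KO libraries, for a log2 ratio of -0.32 ± 0.10 with an adjusted p of 1.00 in edgeR.

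Genes typical of effector-memory and migratory T cells, among which S100a4, S100a6 and S100a10 are often listed, were mostly higher in KO. The list was written with earlier results of these data known. Of 22 tested genes 20 were higher and 2 lower, where 52.0% of all tested genes were higher. The median log2 fold change was 0.13 beside 0.01 over all tested genes. The lower ones were Cd44 with -0.08 ± 0.15 (SE) and Capg with -0.06 ± 0.09. For 11 of the 22 both KO libraries were above both WT libraries and for 0 both were below, where 13.5% and 13.4% of all tested genes were. Without WT replicate 2 the median was 0.19. Of the T cell and Treg markers 8 of 12 were also higher in KO, with a median of 0.08 and summed levels of 8788 and 8571 CPM in the WT libraries, against 9829 and 9241 CPM in the KO libraries, and their part in the effector-memory values was not tested. edgeR called 0 of the 22 and DESeq2 called 1, Crip1, where they called 0.00% and 0.267% of all genes. At an unadjusted p under 0.05 in edgeR there were 4, Crip1, Itgb1, Lgals1 and Anxa2, where 2.85% of all tested genes were. Crip1, a small LIM-domain protein, stood at 266 and 253 CPM in the WT libraries, against 352 and 355 CPM in the KO libraries, without overlap and with little spread, a log2 fold change of 0.45 ± 0.08 (SE). The DESeq2 adjusted p of Crip1 was 0.0296 and that of edgeR 0.856, and DESeq2 no longer called it when any library was left out (adjusted p of 0.727 with WT replicate 1 left out, 1.00 with any other). Itgb1, the integrin beta 1 chain, stood at 165 and 195 CPM in the WT libraries, against 234 and 262 CPM in the KO libraries, for a log2 ratio of 0.46 ± 0.12, and the galectin gene Lgals1 stood at 260 and 307 CPM in the WT libraries, against 334 and 373 CPM in the KO libraries, for a log2 ratio of 0.32 ± 0.12. Both ran from WT replicate 1 as the lowest to KO replicate 2 as the highest, the order of S100a4 and S100a6. At the other pole, of 12 genes of naive and recirculating T cells 6 were higher and 6 lower, with a median of 0.005 (-0.02 to 0.06 without single libraries), and edgeR and DESeq2 called 0 (0 at an unadjusted p under 0.05 in edgeR). Among them Tcf7, a transcription factor of naive and memory cells, had -0.18 ± 0.09, Satb1, a chromatin organiser, had 0.23 ± 0.12, Bach2, a repressor of effector genes, had -0.14 ± 0.13, and Dapl1, at under 1 CPM, had 0.50 ± 0.43.

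**Figure D4:**
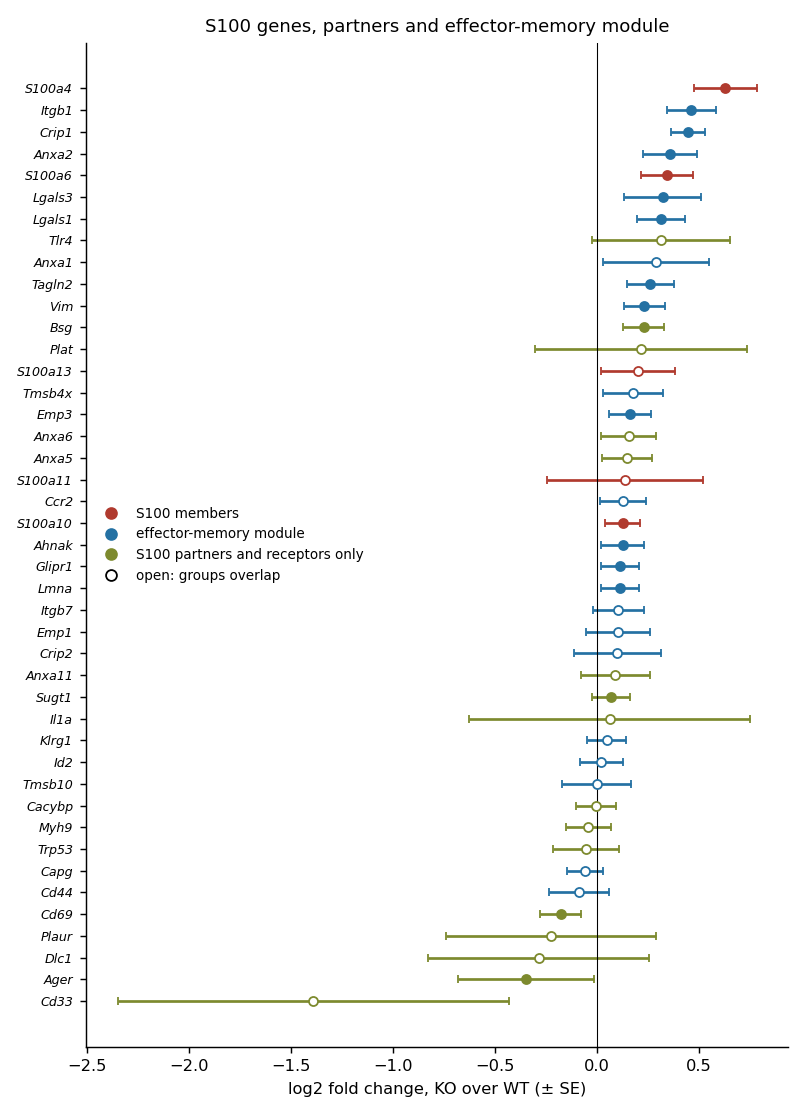
Log2 fold change of KO over WT (horizontal axis, points; bars, SE) of the tested S100 members (red), the effector-memory genes (blue) and the other partners and receptors (green), ordered by value. Filled points mark genes whose WT and KO libraries do not overlap, open points those that overlap. S100a4 at 0.63 is the highest, followed by Itgb1 and Crip1, and 20 of the 22 blue points lie above 0.

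The 3 genes with the pattern most like S100a4 over the 4 libraries, by Euclidean distance of centred log2 CPM among 11330 genes, were Alox8, a lipoxygenase (distance 0.0723), Cryba4, a crystallin (0.0935), and Sema4a, a semaphorin (0.102). For S100a6 they were Hyal2, a hyaluronidase (0.0368), the transcript AW112010 (0.0498) and Kctd1 (0.0501). S100a6 lay at 0.305 from S100a4, farther than the nearest genes of either. For S100a10 they were Hibch, Nupl1 and Cfl2 (0.0112 to 0.0208), and for S100a13 Tmem14c, Afg3l2 and C630004H02Rik (0.0250 to 0.0348). For S100a11 they were Csf2rb, a cytokine receptor chain (0.0711), Gm6793 (0.0764) and Ppig, a peptidyl-prolyl isomerase (0.0819). All 3 were higher in replicate 1 of both genotypes, which follows from their choice by closeness to S100a11. S100a11 was the member farthest from the others, at 0.914 to 1.24, whereas S100a6 and S100a13 were 0.224 apart.

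Markers of other cell types that a sort can carry along varied between libraries. The summed level of 17 monocyte and macrophage markers was 183 and 80.9 CPM in WT replicates 1 and 2 and 135 and 59.0 CPM in KO replicates 1 and 2. It was 2.26-fold higher in the shallower library in WT and 2.28-fold in KO, the direction of S100a11 between replicates. Of 15 tested markers 13, Lyz2 among them (17.2 to 35.0 CPM), were lower in the deeper library of both genotypes. The share of all tested genes with that order was not counted, and same-numbered libraries deviated together across genes (correlation 0.641), so nothing is read from this count. By genotype the sum was lower in KO within each replicate, whereas S100a11 was 1.12-fold and 1.07-fold above WT. By log2 fold change 2 tested markers were higher and 13 lower in KO (median -0.48), where 52.0% of all tested genes were higher. None of the 17 was at 0 in all libraries, and the part of these cells in the S100a11 level was not tested. Without Pecam1, which stood at 105 to 113 CPM in all libraries, the 13 other stromal and endothelial markers summed to 19.8 and 85.3 CPM in the WT libraries, against 15 and 104 CPM in the KO libraries, the direction of S100a13, and their part in it was not tested. With Pecam1 the sums were 127 and 198 CPM in the WT libraries, against 120 and 211 CPM in the KO libraries.

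Epithelial markers, 16 of which were found, summed to 28.9 and 29.0 CPM in the WT libraries, against 30.6 and 47.4 CPM in the KO libraries, and without Epcam (12.2 to 14.7 CPM) to 14.1 and 14.5 CPM in the WT libraries, against 18.4 and 33.7 CPM in the KO libraries. KO replicate 2 was thus the highest library for these markers, as for S100a14 and S100a16. Both with and without Epcam the KO sums were above both WT sums. Krt8, a keratin of simple epithelium, had 0 and 0.126 CPM in the WT libraries, against 1.01 and 3.86 CPM in the KO libraries. Of the 12 tested epithelial markers 10 were higher and 2 lower in KO, where 52.0% of all tested genes were higher. The lower ones were Epcam (14.7 and 14.5 CPM in WT, 12.2 and 13.7 CPM in KO) and the keratin Krt18. Krt18 stood at 2.01 and 2.26 CPM in WT and at 1.43 and 1.53 CPM in KO. The dendritic cell markers summed to 36.7 to 47.6 CPM, mostly Zbtb46 (26.8 to 36.0 CPM). The B and plasma cell markers summed to 152 and 278 CPM in the WT libraries, against 157 and 366 CPM in the KO libraries, mostly Igj (122 to 343 CPM). Of the 10 tested B and plasma cell markers, however, 4 were higher and 6 lower in KO (median log2 fold change -0.32). For 0 of them both KO libraries were above both WT libraries and for 4 both were below, where 13.5% and 13.4% of all tested genes were. The mast cell and basophil markers summed to 12.4 and 11.7 CPM in the WT libraries, against 6.49 and 5.52 CPM in the KO libraries, nearly all of it Kit, with Fcer1a at 0 in every library. DESeq2 called 1 mast cell and basophil marker, Kit (log2 fold change -1.06, adjusted p = 0.0294). It also called 1 epithelial marker, Krt8 (log2 fold change 5.01, adjusted p = 0.0008), where it called 0.267% of all genes. The part of these cell types in the S100 values was not tested.

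**Figure D5:**
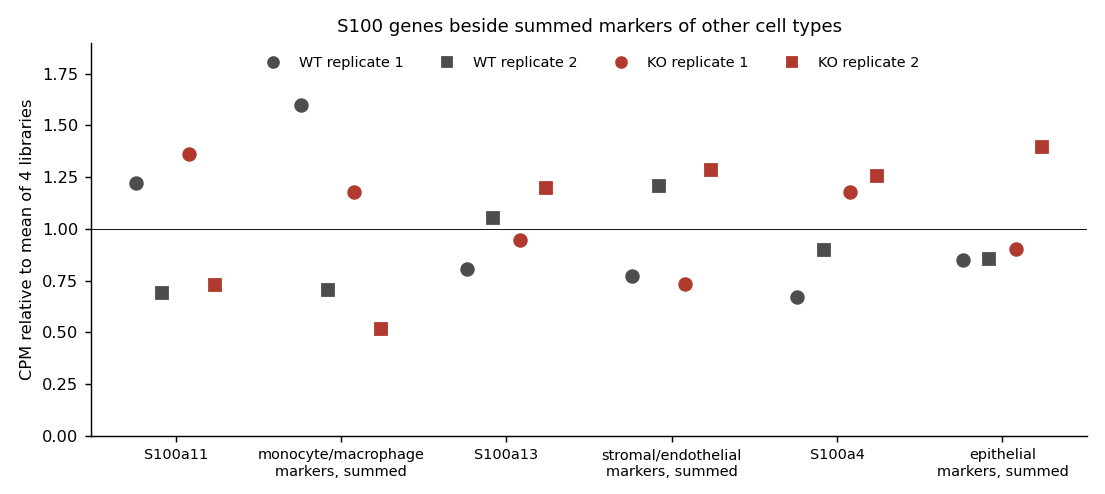
Level in each library relative to the mean of the 4 libraries (vertical axis, CPM ratio starting at 0) for S100a11, S100a13, S100a4 and the summed markers of monocytes and macrophages, stroma and endothelium, and epithelium (circles, replicate 1; squares, replicate 2; grey, WT; red, KO). Circles are above squares for S100a11 and the monocyte and macrophage sum, squares above circles for S100a13 and the stromal sum, and for S100a4 both red points are above both grey ones.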

How the data were processed

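RNA of sorted Treg cells was measured by RNA-seq in 2 WT and 2 KO libraries, depleted of ribosomal RNA and read as single-end reads, per the labels' protocols. The counts are whole numbers per gene and library, as the authors deposited them, and the deposited adjusted p-value column is not reported here. TopHat2, DESeq and mm9 are named without versions, per the submitters' processing notes. How reads were counted, with which annotation and whether by strand, is not given in the sources used here.

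Columns were matched to samples by title. The whole table (19191 genes) was fitted with edgeR 4.0.16 (R 4.3.3), testing genotype alone by quasi-likelihood, with filterByExpr by group (14274 genes tested), TMM scaling and Benjamini-Hochberg adjustment at 0.05. DESeq2 1.42.0 and limma 3.58.1 (voom) were alternatives, beside other scalings, filters, a replicate block and leaving out each library. Total counts ran from 26862922 to 62402450, and floors cover counting error only.

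The S100 genes, the 5 gene lists and the 8 marker lists were chosen with earlier results of these data known, and 181 of 202 listed genes were found. Named genes are the S100 genes, up to 4 genes of lowest p per list, the genes around the blocks, the 3 nearest patterns per member, Ahr, Ahrr, and the highest marker of each list. Foxp3, Ahnak, Myh9, Cacybp, Anxa1, Il1r2, Elane, Krt8, Krt18, Cd44, Capg and the Sprr2a genes were added once their values were known. The edgeR code was tested on simulated data. A gene that the naming rule takes is not reported here.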

Additional observations from a re-analysis of the deposited data

How the results depend on the processing

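Every member kept its direction and moved by less than the spread between replicates under other scalings, filters, DESeq2 and limma-voom. Without single libraries the log2 fold change ran from 0.43 to 0.86 for S100a4, from 0.20 to 0.50 for S100a6, from 0.071 to 0.185 for S100a10, from 0.02 to 0.41 for S100a13 and from -0.38 to 0.60 for S100a11, with the low and the high end of S100a4 and S100a10 reached without WT replicates 1 and 2. The count of genes called, 0 in edgeR and also at an adjusted p under 0.1, was 52 with no filter, 48 with DESeq2, 458 with the replicate number as a block, and 0 to 2 without single libraries. The DESeq2 count, repeated without each library after seeing the data, fell to between 7 and 29.

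Same-numbered libraries deviated together across genes (correlation 0.641), but 2 pairs cannot show that the numbers pair the samples, and the block fit has 1 residual degree of freedom. With the block, edgeR called 458 of the 14274 tested genes, S100a4 (log2 fold change 0.64) and S100a6 (0.35) among them. Since the members were picked on this same difference, nothing is read from their calls. The block fit also called 2 of 19 tested partners and receptors (Anxa2 and Bsg) and 1 of 20 other calcium sensors (Actn1, lower). It called 6 of 22 effector-memory genes (Crip1, Itgb1, Anxa2, Lgals1, Tagln2 and Vim) and 1 of 12 naive and recirculating genes (Satb1). DESeq2 called 1 effector-memory gene. With 2 libraries per group, small differences are limited by the spread between replicates rather than by depth, except for genes with few counts such as S100a9.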
